A study of Mus musculus with 10 samples.

Results

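Ipcef1, Armcx2, Atp1b1, Ank, Adamts6, Qser1, Kbtbd8 and Hs3st3b1 are 8 of the 18193 mouse genes measured by a probe set with a single gene symbol. They were selected on measured values: each was higher in conventional CD4+ T cells whose arrays are labelled Foxp3-transduced than in conventional cells given an empty virus, and most were also higher in regulatory T cells (Treg). The levels on those 6 arrays therefore describe the choice and carry no test. The 8 genes are represented by 23 probe sets, short sets of array probes that read 1 transcript region each, of which 20 passed the filter on low values used for the fits. For every gene the probe set with the highest mean over all arrays passed it, and that probe set gives the gene's values unless another is named.

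The study compared CD4+ spleen T cells of DEREG and DEREG/Scurfy mice. DEREG mice carry a transgene that places GFP under the Foxp3 promoter, so GFP marks cells in which that promoter is active, and scurfy mice carry a mutated Foxp3 gene. All cells were sorted by GFP, stimulated with antibodies to CD3 and CD28, transduced with a retrovirus carrying the NGFR marker, and sorted again for NGFR. There were 5 groups with n = 2 arrays each. Tconv mock and Tconv Foxp3 are GFP- DEREG cells given the empty or the Foxp3 virus, and their titles call them epigenetics(-). Treg mock are GFP+ DEREG cells given the empty virus. Scurfy mock and scurfy Foxp3 are GFP+ cells of DEREG/Scurfy mice, given the empty or the Foxp3 virus. The titles call all 3 GFP+ groups epigenetics(+). All 10 arrays carry the strain entry DEREG_Balb/c, and D_S in the descriptions was read as DEREG/Scurfy. The sources used here do not state the age of the mice, whether animals were pooled or whether replicates were separate cultures, so the errors and p-values reflect array-to-array spread, which may be technical.

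Foxp3 is the transcription factor that defines Treg and that, with a Treg-specific pattern of DNA methylation, sets their gene expression. The 8 genes belong to no single pathway. Ipcef1 binds cytohesins, the exchange factors that activate ARF GTPases in membrane traffic. Atp1b1 is a beta subunit of the sodium-potassium pump, and Ank is a membrane protein that lets pyrophosphate leave the cell. Adamts6 is a secreted metalloproteinase, and Hs3st3b1 adds sulfate to heparan sulfate chains. Qser1 is a nuclear protein known to protect CpG-rich promoters from DNA methylation together with TET1. Kbtbd8 is a substrate adaptor of the cullin-3 ubiquitin ligase. Armcx2 is one of a cluster of X-linked armadillo repeat genes, several of which encode mitochondrial proteins.

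The arrays held T cell RNA but differed in brightness, with median intensities of 18.8 to 36.5 and the lowest median on a Tconv mock array. Over all genes the median log2 difference from Tconv mock was 0.19 to 0.26 in the other mock groups and Tconv Foxp3, and between -0.05 and 0.01 after quantile normalization. All 9 measured T cell markers were above the array median on every array. The Foxp3 probe set read 18.0 and 18.9 on the arrays labelled Tconv Foxp3 and 53.9 and 35.9 on Tconv mock, so the label is not borne out by this probe set, whose place in the transcript is not given. In Treg mock it read 2130 and 3128. In scurfy cells it read 948 and 691 with the Foxp3 virus, against 1188 and 1114 without. Of other genes taken as Treg references, Ctla4 read 1676 and 804 in Tconv Foxp3 against 3336 and 2031 in Tconv mock. Il2ra (6657 and 5518 against 7508 and 7422) and Ikzf4 (523 and 480 against 721 and 540) were also lower. Tnfrsf18 overlapped, and Ikzf2 and Nt5e were higher in Tconv Foxp3 but read at most 24.4 there. The bearing of these values on the label was not tested. Names such as Tconv Foxp3 refer to the label throughout. The scurfy mock arrays had the lowest correlation between replicates, 0.920 across genes, which are not independent replicates, and array 1 of this group had the highest summed CD8 and NK cell markers, 634 against 67.9 to 175 on the 9 other arrays. The summed intensity of 7 B cell markers was 197 and 121 in Tconv mock, 318 and 495 in Tconv Foxp3, 90.5 and 641 in Treg mock, 68.2 and 370 in scurfy mock, and 813 and 1766 in scurfy Foxp3. Of these markers Ebf1 alone read 149 and 79.5 in Tconv mock but 25.2 and 15.1 in Tconv Foxp3, opposite to the 6 others. The sums therefore understate the gap of those others between these groups. In these bulk samples, a different share of cells and a different RNA level per cell cannot be told apart.

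Sequences upstream of the gene start are shown for 3 of the genes because they span the patterns described next: Ipcef1, with the largest difference in Tconv Foxp3, Atp1b1, with the largest in Treg, and Hs3st3b1, the gene that was not higher in Treg. Each is the 250 bases before a RefSeq gene start in build GRCm38.p6, on the gene's strand, with every CpG, the pair of bases that carries DNA methylation, in capitals. The Ipcef1 window is chr10:6980282-6980531 on the minus strand, the first of 3 starts listed for this gene. The Atp1b1 window is chr1:164458356-164458605, minus strand. The Hs3st3b1 window is chr11:63922285-63922534, minus strand.
Ipcef1: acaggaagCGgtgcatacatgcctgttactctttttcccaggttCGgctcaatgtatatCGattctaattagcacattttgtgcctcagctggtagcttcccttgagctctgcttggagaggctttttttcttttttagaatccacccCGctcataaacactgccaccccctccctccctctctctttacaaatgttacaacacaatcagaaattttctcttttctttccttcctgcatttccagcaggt
Atp1b1: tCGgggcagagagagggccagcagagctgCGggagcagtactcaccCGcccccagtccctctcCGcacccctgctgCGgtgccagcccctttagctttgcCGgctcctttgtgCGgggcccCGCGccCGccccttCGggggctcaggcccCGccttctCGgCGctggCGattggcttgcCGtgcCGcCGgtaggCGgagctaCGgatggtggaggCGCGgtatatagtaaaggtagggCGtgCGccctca
Hs3st3b1: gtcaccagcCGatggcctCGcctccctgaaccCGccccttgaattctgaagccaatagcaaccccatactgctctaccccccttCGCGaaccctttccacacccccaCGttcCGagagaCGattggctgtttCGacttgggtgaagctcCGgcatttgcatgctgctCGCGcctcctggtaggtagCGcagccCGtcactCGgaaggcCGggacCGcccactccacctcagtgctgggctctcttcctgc

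The upstream windows differed in CpG content, while the level on these arrays says nothing of their methylation, which was not measured here. RefSeq windows were found for 7 of the 8 genes, all but Adamts6, 9 windows in all. The Ipcef1 window above held 4 CpG, and its other 2 listed starts 3 and 4. Armcx2 also held 4. The windows of Hs3st3b1 (17), Kbtbd8 (20), Atp1b1 (24), Qser1 (42) and Ank (49) were all above the upper quartile of 16 over the 32851 windows of the table, whose median was 6. In all, 6 motifs were searched on both strands: TGTTTAC (forkhead factors, the family of Foxp3), TGTGGT (RUNX), TGANTCA (AP-1), TGACGTCA (CRE), TGGAAA (NFAT) and CCGGAAG (ETS). Only the NFAT letters were found, in the first 2 Ipcef1 windows and in Hs3st3b1. They occur in 18.6% of all windows, against 3.17% for the forkhead letters, 14% for RUNX, 6.75% for AP-1, 1.55% for CRE and 6.91% for ETS. A match is a description of letters and not a binding site.

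Ipcef1 was the most changed of the 8 in the conventional cells that chose it, and it was low in scurfy cells. Its intensity was 43.7 and 25.7 in Tconv mock, 799 and 1683 in Tconv Foxp3, 966 and 731 in Treg mock, 32.4 and 68.7 in scurfy mock, and 124 and 97.5 in scurfy Foxp3. Tconv Foxp3 and Treg overlapped at the top, both above all other arrays, and scurfy mock overlapped Tconv mock at the bottom. On the scale log2(intensity + 16), on which all differences are given, Tconv Foxp3 exceeded Tconv mock by 4.56 (SE 0.42, n = 2 arrays per group here and throughout), a 23.6-fold difference, and Treg exceeded Tconv mock by 4.10 (SE 0.42). Scurfy mock exceeded Tconv mock by 0.36 (SE 0.42). The added 16 makes folds of dim probe sets smaller than they are. The other 2 Ipcef1 probe sets were likewise highest in Treg and Tconv Foxp3, with Treg above Tconv mock by 3.17 and 2.29.

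Of the membrane transport genes, Atp1b1 followed Treg most closely, and Ank was higher in every other group than in Tconv mock. Atp1b1 read 49.1 and 43.5 in Tconv mock, 565 and 329 in Tconv Foxp3, 741 and 1910 in Treg mock, 30.9 and 224 in scurfy mock, and 328 and 269 in scurfy Foxp3. Treg was highest, Tconv Foxp3 next without overlap, and the scurfy mock arrays lay on either side of Tconv mock. In Treg and scurfy mock, the array with more of it was array 2, also the one with the higher B cell marker sum. Tconv mock went the same way, by little. In Tconv Foxp3 and scurfy Foxp3 the array with more Atp1b1 had the lower B cell marker sum. The part of those cells in the level was not tested. The difference from Tconv mock was 2.85 (SE 0.70) in Tconv Foxp3, 4.28 (SE 0.70) in Treg and 0.77 (SE 0.70) in scurfy mock. The dimmest of the 5 Atp1b1 probe sets was not above the array median on any array (1.2 to 15.8) and differed by -0.06 in Treg.

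Ank read 18.8 and 14.3 in Tconv mock, 99.8 and 155 in Tconv Foxp3, 105 and 191 in Treg mock, 102 and 59.6 in scurfy mock, and 112 and 145 in scurfy Foxp3. The 8 arrays outside Tconv mock were all at least 59.6, and neighbouring groups among them overlapped. Differences from Tconv mock were 2.12 (SE 0.37) in Tconv Foxp3, 2.28 (SE 0.37) in Treg and 1.54 (SE 0.37) in scurfy mock, the largest positive difference of the 8 genes in that last group. Ank thus differed from Ipcef1 in its level in scurfy cells, where Treg exceeded scurfy mock 1.67-fold for Ank and 13.4-fold for Ipcef1.

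Of the genes that act outside the cell or on its surface glycans, Adamts6 was low outside Treg and Tconv Foxp3, and Hs3st3b1 was lower in Treg than in Tconv mock. Adamts6 read 13.1 and 7.1 in Tconv mock, 35.5 and 80.1 in Tconv Foxp3, 114 and 159 in Treg mock, 10.4 and 9.2 in scurfy mock, and 26.4 and 26.1 in scurfy Foxp3. It was above the array median on 5 of the 10 arrays, so its low values are near background. The differences from Tconv mock were 1.44 (SE 0.34) in Tconv Foxp3, 2.54 (SE 0.34) in Treg and -0.01 (SE 0.34) in scurfy mock. Treg lay above Tconv Foxp3 and both lay above every scurfy array on this probe set. On the second Adamts6 probe set, Tconv Foxp3 array 1 (16.8) lay below scurfy Foxp3 array 2 (18.2). Its differences from Tconv mock were 0.50 in Tconv Foxp3 and 1.27 in Treg.

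Hs3st3b1 read 98.1 and 115 in Tconv mock, 414 and 470 in Tconv Foxp3, 38.9 and 30.5 in Treg mock, 18.5 and 25.03 in scurfy mock, and 21.0 and 15.3 in scurfy Foxp3. It was high only in the GFP- starting cells: the 4 Tconv arrays were above the 6 GFP+ arrays, whatever the virus. Tconv Foxp3 exceeded Tconv mock by 1.90 (SE 0.26), while Treg was lower by -1.28 (SE 0.26) and scurfy mock by -1.70 (SE 0.26). It is therefore the 1 member that is not a gene higher in Treg. A second probe set had the same order of the Tconv groups at lower intensity, 34.3 and 42.1 in mock and 58.7 and 80.3 in Foxp3, and the remaining 2 were near or below the array median.

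Of the nuclear and ubiquitin ligase genes, Qser1 was near background outside Treg and Tconv Foxp3, and Kbtbd8 had the narrowest range. Qser1 read 5.6 and 5.9 in Tconv mock, 81.7 and 109.5 in Tconv Foxp3, 163 and 168 in Treg mock, 28.2 and 13.95 in scurfy mock, and 19.6 and 28.7 in scurfy Foxp3. Treg exceeded Tconv Foxp3 without overlap, and the scurfy arrays lay between these and Tconv mock. Differences from Tconv mock were 2.35 (SE 0.29) in Tconv Foxp3, 3.06 (SE 0.29) in Treg and 0.74 (SE 0.29) in scurfy mock. The other 2 Qser1 probe sets gave 1.48 and 1.98 for Treg.

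Kbtbd8 read 61.1 and 65.7 in Tconv mock, 286 and 294 in Tconv Foxp3, 138 and 157 in Treg mock, 138 and 108 in scurfy mock, and 165 and 147 in scurfy Foxp3. Tconv Foxp3 stood above all other groups, and the 3 GFP+ groups lay together, with scurfy Foxp3 overlapping Treg. Differences from Tconv mock were 1.95 (SE 0.25) in Tconv Foxp3, 1.04 (SE 0.25) in Treg and 0.80 (SE 0.25) in scurfy mock. Its second probe set differed by 0.20 in Treg.

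Armcx2, the X-linked armadillo repeat gene, rested on a probe set whose name marks probes that can also match other transcripts. It read 24.5 and 30.0 in Tconv mock, 213 and 217 in Tconv Foxp3, 213 and 716 in Treg mock, 107 and 39.96 in scurfy mock, and 137 and 135 in scurfy Foxp3. Every group lay above Tconv mock without overlap on this probe set. On another that passed the filter, scurfy mock array 2 (10.5) lay below Tconv mock array 2 (15.9). There Treg array 1 (33.5) lay below both scurfy Foxp3 arrays (34.9 and 43.0). The Treg arrays differed from each other by 1.67, the higher being the array with the higher B cell marker sum. The scurfy mock arrays went the opposite way, with the lower level on the array with more B cell markers. Differences from Tconv mock were 2.42 (SE 0.53) in Tconv Foxp3, 3.25 (SE 0.53) in Treg and 0.94 (SE 0.53) in scurfy mock.

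**Figure D1:**
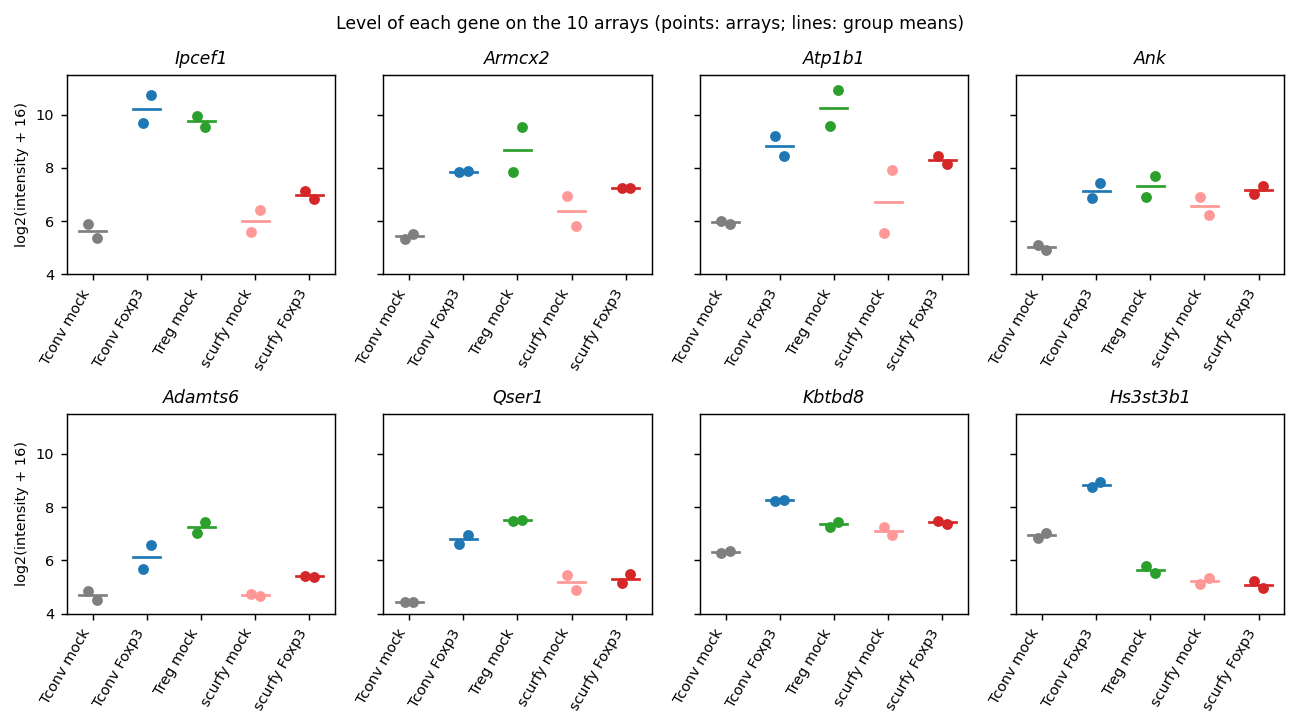
Level of each of the 8 genes as log2(intensity + 16) on the 10 arrays, by group; points are arrays and lines are the means of n = 2. Hs3st3b1 is high in the Tconv groups alone. Ank, Armcx2, Kbtbd8 and Qser1 are above Tconv mock without overlap in every other group. Ipcef1, Armcx2, Atp1b1, Adamts6 and Qser1 have their highest means in Tconv Foxp3 and Treg.

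The members' counts in the contrasts that chose them only restate the choice. All 8 had both Tconv Foxp3 arrays above both Tconv mock arrays, as did 47.5% of the 11321 genes kept by the filter, and 7 of 8 had both Treg arrays above Tconv mock, against 35.2%. limma called 10 genes between Tconv Foxp3 and Tconv mock at an adjusted p under 0.05 (0.0883% of genes), and 6 of these were higher (0.053%) and 4 lower. That split was 2 higher and 5 lower after quantile normalization and 4 higher and 12 lower at a common 75th percentile. The count was 0 without array 2 of either group, 3 without array 1 of Tconv mock or either scurfy Foxp3 array, 5 when a Treg array was left out and 19 when a scurfy mock array was. Of the 6, 4 were members, namely Ipcef1, Qser1, Kbtbd8 and Hs3st3b1, which cannot be read as support because this contrast picked them. The median difference of the 8 was 2.23 in Tconv Foxp3 and 2.80 in Treg, where the median of all genes was 0.26 and 0.19. Of the 23 probe sets, 22 were higher in Tconv Foxp3 and 16 by more than 1, with -0.12 as the lowest. Of 7 B cell markers, 6 were also higher in both Tconv Foxp3 arrays than in both Tconv mock arrays and 1, Ebf1, was lower. The part of B cells in the members' values was not tested. In Treg 19 probe sets were higher, 17 by more than 1, and 4 were lower, of which 3 belong to Hs3st3b1.

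**Figure D2:**
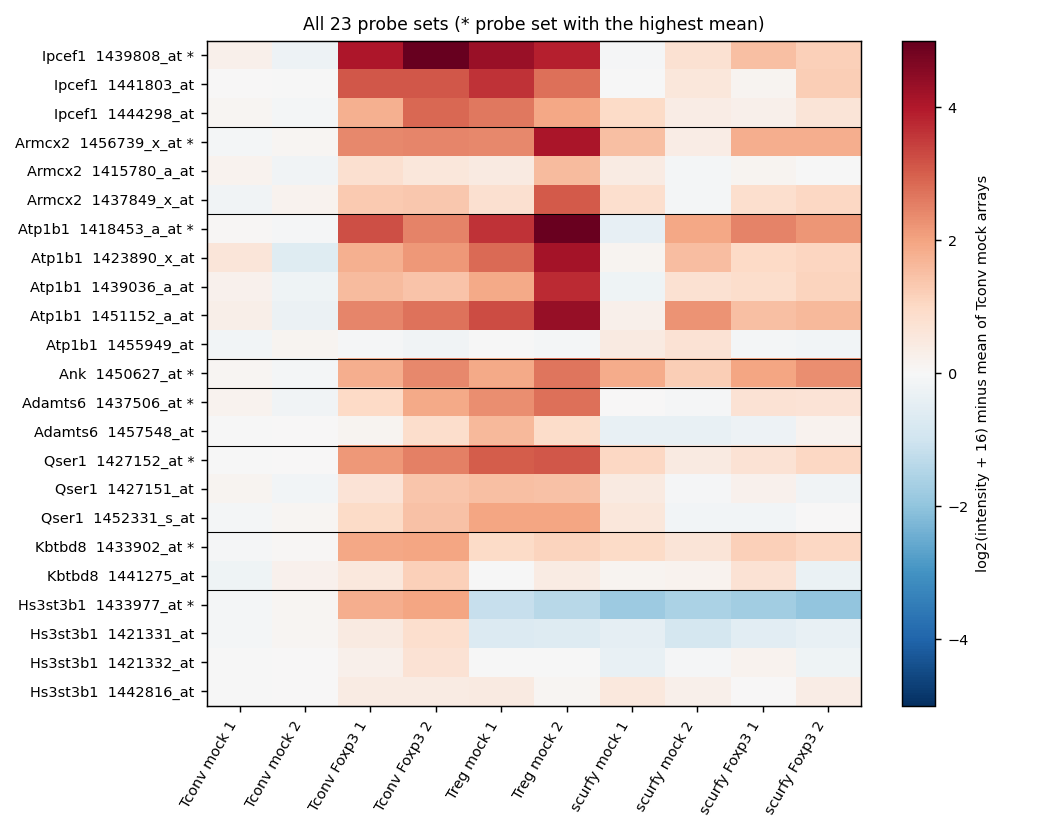
All 23 probe sets of the 8 genes on each array, as log2(intensity + 16) minus the mean of the Tconv mock arrays, with a star on the probe set used for each gene. Probe sets of 1 gene do not all share their order, and not only where they are dim. On an Atp1b1 probe set above the array median on all 10 arrays, scurfy mock array 2 (212) is above both scurfy Foxp3 arrays (120 and 129). The brightest Hs3st3b1 probe set is below Tconv mock on all 6 GFP+ arrays.

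In cells with an active Foxp3 promoter but a mutated Foxp3 gene, 4 of the 8 genes lay above Tconv mock. This was on the probe set used for each gene. Scurfy mock is compared with Tconv mock arrays that also chose the members, so these values are descriptions. Ank, Armcx2, Kbtbd8 and Qser1, 4 of 8, had both scurfy mock arrays above both Tconv mock arrays, against 38.8% of all genes, and the same 4 had all 4 scurfy arrays above them, against 23.2%. Another probe set that passed the filter overlapped for Armcx2 (34.6 and 10.5 in scurfy mock, 9.5 and 15.9 in Tconv mock). The same held for Kbtbd8 (27.2 and 28.2 against 17.6 and 30.4). For Qser1, near background in scurfy cells, another read 11.3 and 0.58 against 1.3 and 3.5. Ank had no other probe set. Ipcef1, Atp1b1 and Adamts6 overlapped Tconv mock in scurfy mock. Without scurfy mock array 2 the difference of Ipcef1 turned to -0.04, that of Atp1b1 to -0.41 and that of Adamts6 to 0.03. The median of the 8 in scurfy mock was 0.76 above Tconv mock, with 6 positive and 2 negative, beside 0.22 for all genes, of which 0.574% were called in either direction. Set against Treg instead, 6 of 8 had both Treg arrays above all 4 scurfy arrays, all but Ank and Kbtbd8, where 6.72% of all genes did. Against Tconv Foxp3, 7 of 8 lay below it on all 4 scurfy arrays, all but Ank, where 18.8% of all genes did. Both comparisons use the arrays that chose the members as high, so the counts follow in part from the choice. They rest on the probe set used for each gene and did not hold on all other probe sets.

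Scurfy Foxp3 against scurfy mock is the comparison whose difference of means uses none of the arrays that chose the members. It asks whether these genes were also higher under the Foxp3 label in the GFP+ scurfy cells. The SE, intervals and p-values rest on 1 spread estimated over all 10 arrays, and the probe set and the filter also used all 10. The test is therefore not fully independent of the choice. None of the 8 was called by limma. Ipcef1 differed by 0.98 (SE 0.42, 95% interval 0.02 to 1.93, limma unadjusted p = 0.046). Its other probe sets gave 0.40 and -0.23. For Atp1b1 the difference was 1.56 (SE 0.70, -0.03 to 3.15, limma unadjusted p = 0.0532), and for Ank 0.61 (SE 0.37, -0.22 to 1.43). Both are membrane proteins. The other Atp1b1 probe sets gave 0.72, 0.30, 0.21 and, on the dimmest, -0.71. On those at 0.30 and 0.21, scurfy mock array 2 (212 and 123) lay above both scurfy Foxp3 arrays. Adamts6 differed by 0.71 (SE 0.34, -0.05 to 1.47) and Armcx2 by 0.87 (SE 0.53, -0.32 to 2.07). The remaining 3 were Kbtbd8 at 0.31 (SE 0.25, -0.25 to 0.87), Qser1 at 0.13 (SE 0.29, -0.52 to 0.78) and Hs3st3b1 at -0.14 (SE 0.26, -0.73 to 0.44). Adamts6, Qser1 and Hs3st3b1 were each above the array median on 1 of the 4 scurfy arrays and passed the filter through other groups. Their levels here are near background, so their differences are no bound on a change. The other 5 were above the array median on all 4. For each of the 8 the limma p adjusted by Benjamini-Hochberg over all genes was 0.999. At an unadjusted p under 0.05, 1 of the 8 passed, beside 477 (4.21%) of all genes.

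The direction in scurfy cells was positive for 7 of the 8 genes, beside 47.6% of all genes, with a median of 0.66 beside -0.02. This count and median include Adamts6, Qser1 and Hs3st3b1, which were near background in scurfy cells and passed the filter through other groups. Ipcef1, Armcx2, Atp1b1, Ank and Kbtbd8, above the array median on all 4 scurfy arrays, were each positive. Both scurfy Foxp3 arrays were above both scurfy mock arrays for 6 of 8, namely Adamts6, Ank, Armcx2, Atp1b1, Ipcef1 and Kbtbd8, where 13.9% of all genes were. Of these 6, Adamts6 was near background in scurfy cells, and Atp1b1 overlapped on its probe sets at 0.30 and 0.21. Ipcef1 overlapped on its probe sets at 0.40 and -0.23, and Kbtbd8 on its second probe set. The 6 B cell markers that also separated in this way, of 7 measured, and the 4 of 9 myeloid markers, moved in the same direction, and their part in the result was not tested. Only 1 B cell marker was above the array median on scurfy mock array 1, but 5 were on array 2 and all 7 were on each scurfy Foxp3 array. Without scurfy mock array 2 the median of the 8 fell to 0.29, Atp1b1 rose to 2.74, Armcx2 fell to 0.31 and Qser1 turned to -0.15. With array 1 of scurfy mock left out instead, the median became 0.52 and Atp1b1 0.38. Over the 23 probe sets 16 were positive and 7 negative, with a median of 0.23, so the pattern of the brightest probe set was not shared by all.

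**Figure D3:**
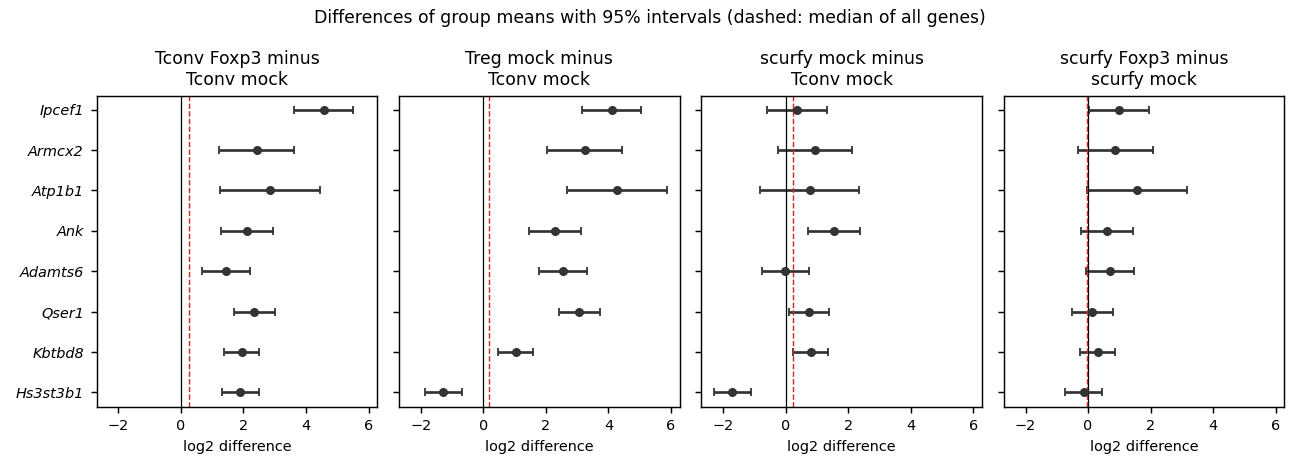
Difference of group means on the scale log2(intensity + 16), with 95% intervals from the fit, for the 8 genes in 4 comparisons; the dashed line is the median of all genes. The first 2 panels show the contrasts used in the choice, and in the last panel, scurfy Foxp3 against scurfy mock, the points lie between -0.14 and 1.56.

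The size of the difference was smaller in scurfy cells than in the contrast used for the choice for each of the 8 genes, but that contrast was picked for being large and no test of the gap is given. Ipcef1 stood at 0.98 in scurfy cells and 4.56 in conventional cells, and Hs3st3b1 at -0.14 and 1.90. limma called 4 genes in scurfy Foxp3 against scurfy mock (0.0353%), all higher and none a member, and named here after their values were seen: the chemokine Cxcl16, Pxdc1, the C-type lectin Clec4n and the collagenase Mmp13. Each had an adjusted p of 0.0297, ranging over the 19 alternatives from 0.0177 to 0.921, and was called in 4 or 5 of them. The count of calls was 48 without scurfy mock array 2 and 0 without any 1 of the 9 other arrays. Cxcl16 read 380 and 376 in scurfy Foxp3 and 53.5 and 49.1 in scurfy mock. Clec4n read 76.7 and 76.2 in scurfy Foxp3 and at most 5.5 on the other arrays, and Mmp13 77.9 and 61.0 and at most 4.3. Clec4n and Mmp13 were above the array median only in scurfy Foxp3. They thus passed the filter only through the group where they were high.

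The likeness of the genes over the 10 arrays follows in part from their choice, since 6 of those arrays chose them as high in Tconv Foxp3 and mostly in Treg. The values are descriptions over arrays that share groups. Pearson's r over the 21 pairs without Hs3st3b1 ran from 0.53 to 0.94, with the highest between Adamts6 and Qser1, and over the 7 pairs with Hs3st3b1 from -0.13 to 0.48. Genes whose level was most like the mean of the 8 z-scored profiles, among 10765 searched, were Pip4k2a (r = 0.95), Lrrc58 (0.94), Frat2 (0.94), Tox (0.94), Mcoln3 (0.94), Rab3ip (0.93), Dtx1 (0.93) and Prps1l3 (0.93), each over 10 arrays. Pip4k2a, a phosphoinositide kinase, was also the gene most like Ipcef1 alone (r = 0.98), followed by Dtx1 (0.95) and Acot1 (0.95). Pip4k2a read 463 and 397 in Tconv mock, 802 and 1043 in Tconv Foxp3, 978 and 892 in Treg mock, 489 and 486 in scurfy mock, and 524 and 500.1 in scurfy Foxp3. The Treg and Tconv Foxp3 arrays were thus above the other 6 for this gene. Tox, a transcription factor of the HMG family, read 41.2 and 45.0 in Tconv mock, 270 and 466 in Tconv Foxp3, 838 and 722 in Treg mock, 45.6 and 79.2 in scurfy mock, and 149 and 191 in scurfy Foxp3.

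Genes that work with the 8, or belong to their families, are given next as counts beside those over all genes. The 8 lists held 132 genes, of which 74 were tested. In Tconv Foxp3 against Tconv mock limma called 0 of the 74, where 0.0883% of all genes were called, and 13 had an unadjusted p under 0.05, as did 13.9% of all genes. Their median was 0.31 beside 0.26 for all genes. In Treg against Tconv mock it called 0 of the 74 (12 had an unadjusted p under 0.05, as did 15.4% of all genes) with a median of 0.22, where 1.12% of all genes were called. In scurfy Foxp3 against scurfy mock it called 0, where 0.0353% of all genes were called, and 2 had an unadjusted p under 0.05, as did 4.21% of all genes, with a median of -0.06. In scurfy mock against Tconv mock it called 1 of 74, lower, where 0.574% of all genes were called, and 10 had an unadjusted p under 0.05, as did 13.9% of all genes. With so few genes called in all, counts of 0 or 1 in 74 say little about the lists.

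The called gene was Dnmt3a, the DNA methyltransferase that sets new methylation. It read 1563 and 1262 in Tconv mock, 1714 and 1821 in Tconv Foxp3, 929 and 933 in Treg mock, 484 and 504 in scurfy mock, and 716 and 560.5 in scurfy Foxp3. All GFP+ arrays were below all GFP- arrays. Scurfy mock was lower than Tconv mock by -1.48 (SE 0.25, limma adjusted p = 0.048), a call that held in 7 of 19 alternatives, with an adjusted p from 0.0149 to 0.314, and was lost under 8 of the 10 fits without 1 array. Treg differed from Tconv mock by -0.59 (SE 0.25, adjusted p = 0.317). The list of methylation and TET genes, to which Qser1 is tied by its known role, had 8 tested genes, with a median of 0.25 in Tconv Foxp3 and 0.05 in Treg.

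Among 20 tested ARF6 and cytohesin genes, partners of Ipcef1, the median was 0.16 in Tconv Foxp3 and 0.22 in Treg, and Psd2 had the smallest p, at 1.56 (SE 0.29, adjusted p = 0.266) in scurfy Foxp3 against mock. The ARF exchange factor Psd2 read 53.2 and 43.6 in scurfy Foxp3 and at most 12.2 on the other arrays. It was above the array median only in scurfy Foxp3 and passed the filter only through that group. Its place as the smallest p therefore follows in part from the filter. Cyth3, a cytohesin, differed by 1.05 in Tconv Foxp3 and 1.94 in Treg and was not called. Of the sodium pump genes, 4 were tested, with differences from -0.22 to 0.19 in Tconv Foxp3, and Fxyd2, a pump regulator, differed by 0.59 (SE 0.32) in Treg. Atp1b3, the beta 3 subunit, differed by 0.32 in Treg.

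Alpl, the alkaline phosphatase that breaks down pyrophosphate and so acts opposite to Ank on mineral formation, read 28.7 and 28.3 in Tconv mock, 110 and 148 in Tconv Foxp3, 75.3 and 29.6 in Treg mock, 29.5 and 29.7 in scurfy mock, and 46.1 and 36.0 in scurfy Foxp3. Tconv Foxp3 was above all other arrays, with a difference from Tconv mock of 1.69 (SE 0.35, adjusted p = 0.161) that was not called. Its list of 7 tested pyrophosphate and phosphate genes had a median of 0.68 in Tconv Foxp3, and 0.42 after quantile normalization. Among 7 tested armadillo and GASP family genes, relatives of Armcx2, 7 were positive in Tconv Foxp3 with a median of 0.44, beside 72.4% of all genes. After quantile normalization 6 of 7 were positive with a median of 0.19, beside 50.7% of all genes, and in the values as deposited Armcx6 differed by 1.39 (SE 0.40, adjusted p = 0.221).

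Of the ADAMTS relatives of Adamts6, 4 were tested and lay between -0.22 and 0.00 in Tconv Foxp3, while Adamtsl5 differed by 1.01 (SE 0.34, adjusted p = 0.252) in scurfy mock. Of 11 tested KBTBD and cullin-3 genes, 11 were positive in Tconv Foxp3 with a median of 0.51, beside 72.4% of all genes and their median of 0.26. After quantile normalization 11 were positive with a median of 0.20, beside 50.7% of all genes, and 10 at a common 75th percentile, beside 48.5%. In the values as deposited Kbtbd7, a relative of Kbtbd8, differed by 0.84 (SE 0.35, adjusted p = 0.3) in Treg. The 13 tested heparan sulfate genes had a median of 0.25 in Tconv Foxp3 and 0.17 in Treg. In that list Glce, the epimerase that acts before the sulfotransferases, differed by 0.87 (SE 0.27, adjusted p = 0.172) in Treg, where Hs3st3b1 was lower.

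**Figure D4:**
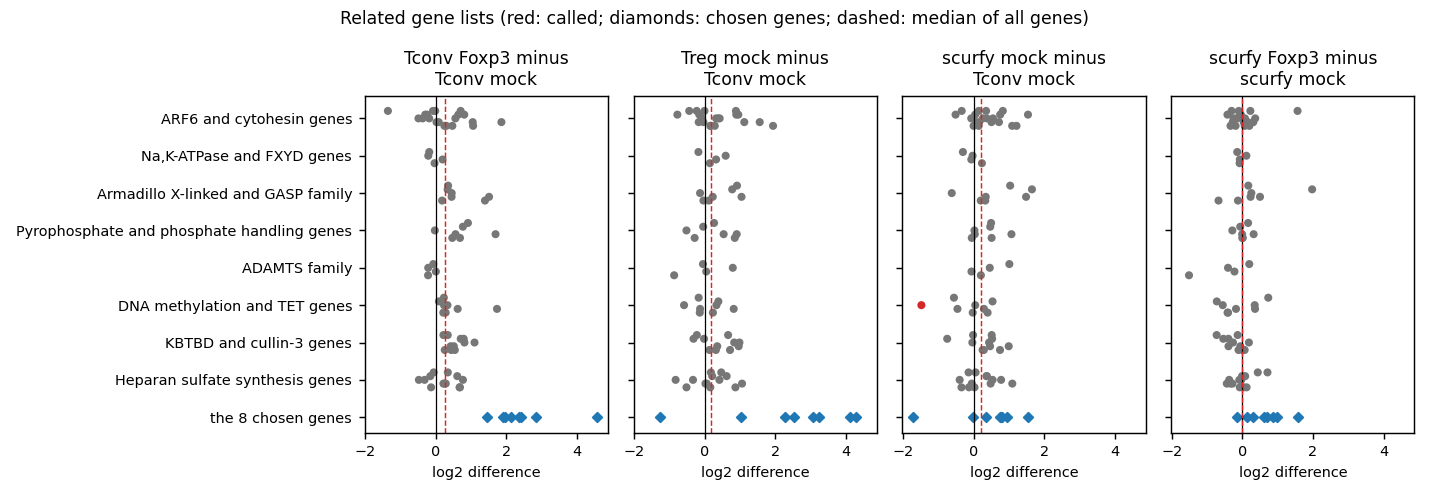
Log2 difference of group means for each tested gene of the 8 related lists and for the 8 chosen genes (diamonds) in 4 comparisons; the dashed line is the median of all genes and the called gene, Dnmt3a, is red. The chosen genes lie between 1.44 and 4.56 in the first panel, which shows the contrast that chose them, and related genes lie between -1.36 and 1.86 there.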

How the data were processed

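Amplified cDNA of each sample was hybridised to 1 Affymetrix Mouse430_2 array, 10 in all, grouped by their titles. The authors deposited 1 linear intensity for each probe set, made with Affymetrix Expression Console, per the submitters' processing notes. For its summary method, version and scaling: not given in the sources used here. Of 45101 probe sets, 34945 had 1 gene symbol, 932 several and 9211 none. The 64 control probe sets were left out: 51 are among those with none, and 13 that carry a symbol are not counted in the 34945. Each of 18193 genes took its probe set with the highest mean. Values were analysed as log2(intensity + 16) without renormalizing. The filter on low values required 2 or more arrays above their own median and left 11321 genes.

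Group differences were fitted over all 10 arrays with limma 3.58.1 in R 4.3.3 (lmFit, eBayes), with no replicate block, and adjusted by Benjamini-Hochberg over all genes; called means an adjusted p under 0.05. The fit was tested on simulated data. The number of arrays limits the precision. The 8 members and the related lists were chosen with earlier results of these data known, and the members are tested only in scurfy Foxp3 against scurfy mock. From each list, called genes are named, or otherwise the gene with the smallest p; Cyth3 and Atp1b3 were named after their values were seen. Likeness is Pearson's r over 10 arrays among kept genes with clear symbols. Promoter sequences come from RefSeq, GRCm38.p6. Alternatives were pseudocounts of 1 and 64, a common 75th percentile, quantile normalization, omitting the filter, each probe set on its own, a replicate block, trend and robust options, only the compared groups, and leaving out each array.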

Additional observations from a re-analysis of the deposited data

How the results depend on the processing

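None of the 8 genes was called in scurfy Foxp3 against scurfy mock under any of the 19 alternatives (lowest adjusted p 0.0907, for Atp1b1). Their signs held except for Qser1 (from -0.15 to 0.41 without 1 array), at -0.03 without scurfy Foxp3 replicate 2 and -0.15 without scurfy mock replicate 2. The median of the 8 was 0.87 with a pseudocount of 1, 0.36 with 64, 0.23 with each probe set on its own and from 0.29 to 0.74 when 1 array was left out. Against Tconv mock, quantile normalization moved the median of all genes from 0.26 to 0.01 in Tconv Foxp3, from 0.19 to -0.05 in Treg and from 0.22 to -0.02 in scurfy mock, and the members' differences there kept their signs under both scalings. In scurfy mock against Tconv mock the sign turned with arrays left out for Ipcef1 (-0.04 to 0.76) and Atp1b1 (-0.41 to 1.95), and Adamts6 ran from -0.17 to 0.16 over the alternatives.

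Counts of called genes over all genes moved more. Tconv Foxp3 against Tconv mock, with 10, gave 16 at a common 75th percentile (4 higher and 12 lower), 3 with no filter, 6 with each probe set, 17 with trend and robust options and from 0 to 19 without 1 array; quantile normalization gave 2 higher and 5 lower. Treg against Tconv mock, with 127 (104 higher, 23 lower), gave 192 after quantile normalization (109 higher, 83 lower), 205 at a common 75th percentile (123 higher, 82 lower), 56 with a pseudocount of 1, 54 with no filter, 259 with each probe set, 200 with trend and robust options, 26 in only the compared groups and from 17 to 219 without 1 array. Scurfy mock against Tconv mock, with 65, gave 35 and 41 with pseudocounts of 1 and 64, 28 with no filter, 107 with trend and robust options, 1 in only the compared groups and from 10 to 234 without 1 array. The 4 calls in scurfy Foxp3 against scurfy mock became 0 with a pseudocount of 1, each probe set, trend and robust options or only the compared groups, and from 0 to 48 without 1 array. The causes were not tested. Fits that leave a lone array in a group assume that it varies like the other groups.

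The replicate numbers share no stated culture, and deviations of same-numbered arrays correlated from -0.17 to 0.18 over 10 pairs of groups. With the replicate block the counts were 7, 83, 42 and 0 in the same order, and the median of the 8 was 0.66. Dim probe sets of Adamts6 and Qser1, above the array median on 5 arrays each, limit what their low levels show.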
